A study of Mus musculus with 6 samples.

Results

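Oncofetal and stem cell genes are genes that are active in the embryo or in progenitor cells, low in most adult tissue, and often active again in tumours. The genes described were listed by name: the chromatin genes Hmga1 and Hmga2, the RNA-binding genes Lin28b, Igf2bp1, Igf2bp2 and Igf2bp3, the surface markers Kit, Prom1 and Cd44, and the transcription factor gene Sox9. Of these 10 genes, 8 had at least 1 probe set annotated to that gene alone, among 18194 genes named in this way, and these 8 had 25 probe sets in all. Hmga1 and Igf2bp2 were not analysed here.

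Messenger RNA was measured on 6 single-colour Affymetrix mouse arrays, 2 for each of 3 groups, in tumour cells of the ovarian surface epithelium, the cell layer that covers the ovary. Cells carried wild-type p53 (animals of 9 weeks), wild-type p53 together with the Trp53 R172H mutation (heterozygous; animals of 9 and 12 weeks), or only the R172H form (homozygous; animals of 4 weeks). Every title also bears the tag P/K, which the labels do not spell out, and the strain background is mixed in all groups. For the homozygous samples the source field names Trp63 in place of Trp53, and the titles were followed. Cells were trypsin-digested, cultured in medium with serum and collected without passage. Each difference of the homozygous cells from the others is also a difference in age, so these cannot be told apart. The heterozygous samples differ in age and so point to separate animals. For the other groups nothing in the labels says so, and there the errors measure the spread between arrays, which may be technical.

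HMGA proteins bind AT-rich DNA and alter chromatin shape, and HMGA2 is abundant in the embryo and scarce in adult cells. LIN28B binds the precursors of let-7 microRNAs and stops their maturation, while mature let-7 represses the messengers of Hmga2, Lin28b and Igf2bp1, among many others. IGF2BP proteins bind messenger RNAs and prolong their life. KIT is the receptor of stem cell factor, PROM1 (CD133) is a membrane protein of progenitor cells, CD44 is the receptor of hyaluronan, and SOX9 is a transcription factor of progenitors in many epithelia and of the testis.

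The let-7 microRNAs themselves were not measured here. Their sequences are shown because they join LIN28B, which blocks their maturation, to the messengers they repress; no target site was searched for. Of 10 mature let-7 names in the RefSeq table (build GRCm38.p6), 9 share the seed GAGGUAG at bases 2 to 8, through which a messenger is recognised. The seed is in capitals in the 3 shown, of which let-7a-5p is given at chr13:48538239-48538260 (minus strand), let-7d-5p at chr13:48536078-48536099 (minus strand) and let-7g-5p at chr9:106178846-106178867 (plus strand).
mmu-let-7a-5p: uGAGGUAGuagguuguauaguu
mmu-let-7d-5p: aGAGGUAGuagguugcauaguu
mmu-let-7g-5p: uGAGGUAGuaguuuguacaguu

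Promoters are shown for the 2 tested genes with the highest homozygous signals relative to the other groups, Hmga2 and Cd44, and for Prom1, which ran the other way. RefSeq promoter windows, from 250 bases before to 50 after the annotated start (GRCm38.p6), were held for 6 of the 8 genes. The windows were searched on both strands for 6 motifs, and capitals mark each match: the TATA box, spelled TATAAA, the CCAAT box, spelled by its name, the GC box, spelled GGGCGG, the AP-1 motif, spelled TGANTCA, the E-box, spelled CACGTG, and the cyclic AMP response element, spelled TGACGTCA. The Hmga2 window is chr10:120476420-120476719 (minus strand), that of Cd44 chr2:102901616-102901915 (minus strand) and that of the upstream Prom1 start chr5:44101687-44101986 (minus strand).
Hmga2: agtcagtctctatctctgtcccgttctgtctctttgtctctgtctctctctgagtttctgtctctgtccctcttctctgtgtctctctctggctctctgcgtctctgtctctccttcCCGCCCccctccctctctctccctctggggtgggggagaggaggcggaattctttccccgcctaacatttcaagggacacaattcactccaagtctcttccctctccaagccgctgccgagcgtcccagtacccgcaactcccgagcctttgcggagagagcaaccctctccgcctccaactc
Cd44: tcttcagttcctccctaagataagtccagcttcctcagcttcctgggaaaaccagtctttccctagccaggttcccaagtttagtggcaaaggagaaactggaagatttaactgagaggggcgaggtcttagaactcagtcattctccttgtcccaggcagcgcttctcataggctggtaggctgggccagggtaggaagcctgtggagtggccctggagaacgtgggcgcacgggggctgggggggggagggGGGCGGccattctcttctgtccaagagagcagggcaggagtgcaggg
Prom1: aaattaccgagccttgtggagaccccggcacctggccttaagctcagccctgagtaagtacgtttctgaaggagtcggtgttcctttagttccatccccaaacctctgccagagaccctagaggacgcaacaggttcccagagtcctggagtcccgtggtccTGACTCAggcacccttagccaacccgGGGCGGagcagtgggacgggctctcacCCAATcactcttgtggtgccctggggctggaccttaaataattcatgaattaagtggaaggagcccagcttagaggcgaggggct
Each of the 3 windows held a single GC box, which 35.7% of all 32851 promoter windows also held. The Prom1 window alone of the 3 held a CCAAT box and an AP-1 match, found in 37.4% and 7.81% of all windows. None of the 3 held a TATA box (13.6% of all windows), an E-box (7.15%) or a cyclic AMP response element (1.79%). The Hmga2 window had a GC content of 57.7% and that of Cd44 58.0%, against a median of 52.7% over all windows. A match is a description of the letters only.

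Before the genes are described, the arrays need a word. Signals are the deposited linear intensities, and 24.5, the highest signal seen on any array for a bacterial Trpn control, is used as background. The homozygous arrays stood apart from each other: the SD of the log2 difference within a pair was 1.30 for the homozygous arrays, 0.60 for the wild-type and 0.55 for the heterozygous arrays, over 10916 genes bright enough to be tested (a geometric mean signal of at least 60.2). Cdkn1a (p21), a target of p53 that arrests the cell cycle, fell from 2519 and 2646 in the wild-type arrays to 192 and 111 in the homozygous arrays (limma adjusted p = 0.0136), with 1548 and 1437 in the heterozygous arrays. Mdm2, another p53 target, overlapped, with 1192 and 943 in wild-type cells against 1136 and 1253 in homozygous cells. The transcript of the mutated gene itself was not analysed here. Genes that mark the surface epithelium or mesothelium were above background for 23 of 23 genes in each wild-type and heterozygous array, for 21 in homozygous array 1 and for 23 in homozygous array 2, with a summed signal of 207455 to 269872 in wild-type and heterozygous arrays and of 79218 and 97725 in the homozygous arrays. Because each sample is bulk RNA, fewer cells of a type and less RNA per cell cannot be told apart.

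In homozygous cells Hmga2 and Cd44 had the highest signals of the 3 groups, with no overlap with the other arrays, while Prom1 lay under background. Lin28b and Igf2bp1 had their highest signal in homozygous array 1. For Igf2bp1 array 2 lay among the other arrays by the brightest probe set. For Lin28b array 2 was under background, as were the wild-type and heterozygous arrays. Igf2bp3, Kit and Sox9 overlapped between homozygous and heterozygous arrays. No member passed the test in any comparison. Of the 8 genes, 4 were bright enough to be tested: Hmga2, Igf2bp3, Cd44 and Sox9. In the comparison of homozygous with wild-type cells, limma called 0 of these 4 at an adjusted p under 0.05, against 2.67% of all 10916 genes tested (291 genes), and 2 of the 4 had an unadjusted p under 0.05, against 28.9% of all genes. For homozygous against heterozygous cells, limma called 0 of 4, against 4.09% of all genes (446), with 2 of 4 at an unadjusted p under 0.05, against 30.6%. For heterozygous against wild-type cells, limma called 0 of 4 and 0 of all genes, and at an unadjusted p under 0.05 stood 0 of the 4 and 0.65% of all genes (71). The 3 groups share 1 estimate of the spread. Of the pooled variance 72.6% came from the homozygous pair, which is not part of this last comparison. With only the wild-type and heterozygous arrays in the fit, 0 members and 0 of all genes were called as well. With 2 arrays against 2, a permutation test of a single gene cannot give a p under 0.333, so no such test is reported. The arrays did not overlap in 3 of the 4 genes for homozygous against wild-type cells, all higher. The share over all genes was 61.2% in either direction and 27.4% higher. For homozygous against heterozygous cells the count was 2 of 4, both higher, against 62.5% in either direction and 28.2% higher. For heterozygous against wild-type cells the count was 1 of 4, higher, against 26% in either direction and 13.2% higher.

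**Figure D1:**
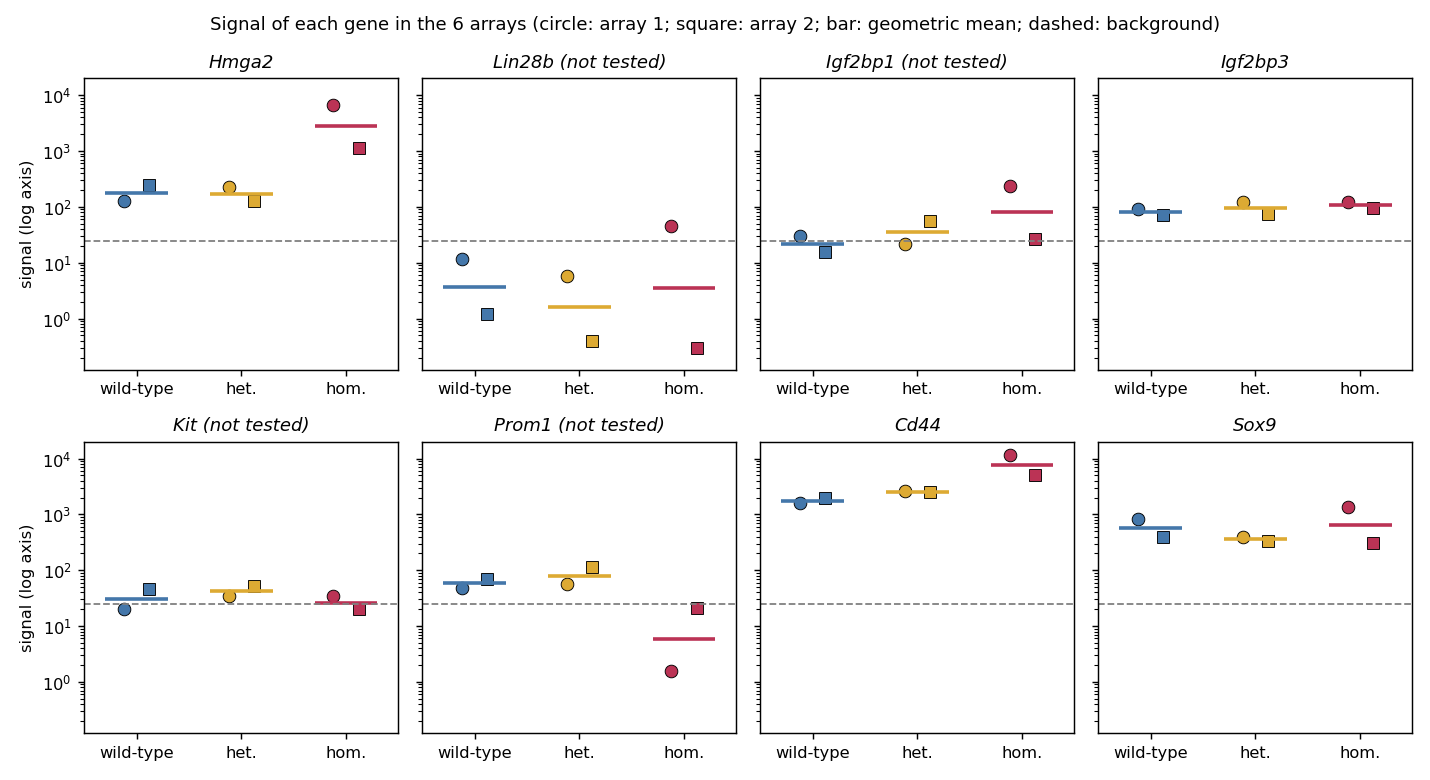
Signal of the brightest probe set of each of the 8 genes (log axis) in the wild-type, heterozygous and homozygous arrays; circles are array 1, squares array 2, bars the geometric mean of 2 arrays, and the dashed line the background level of 24.5. Hmga2 and Cd44 are highest in the homozygous arrays, at 1147 to 6748 and 5011 to 11587, and Prom1 lies under background there.

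Hmga2 encodes the embryonic AT-hook protein that is a classic let-7 target. Its brightest probe set (1450780_s_at) had signals of 127 and 243 in the wild-type arrays, 224 and 129 in the heterozygous arrays, and 6748 and 1147 in homozygous arrays 1 and 2. The homozygous arrays were both above every other array, and array 1 was 5.88-fold above array 2, while wild-type and heterozygous arrays overlapped. The log2 fold change was 3.99 ± 0.90 (limma SE, n = 2 arrays per group) against wild-type cells, with an adjusted p of 0.0737 by limma, and 4.03 ± 0.90 against heterozygous cells, with an adjusted p of 0.0698 by limma. Of all tested genes, 99.9% had a lower log2 fold change in each of these comparisons. Heterozygous and wild-type cells differed by -0.04 ± 0.90 (limma adjusted p = 1), a sign that turned with quantile-normalised (0.011) and median-centred (0.030) arrays.

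The other probe sets of Hmga2 behaved alike at the higher signals. The probe set 1422851_at read 61.3 and 246 in wild-type, 170 and 118 in heterozygous, and 7559 and 1287 in homozygous arrays. The dimmer probe set 1450781_at had geometric means of 33.0 in wild-type and 40.5 in heterozygous cells and read 2416 and 395 in homozygous arrays 1 and 2. All 4 probe sets had both homozygous arrays above both wild-type arrays, and 3 of 4 had them above both heterozygous arrays; the exception, 1446196_at, was near background throughout (at most 66.7). With each probe set tested separately, an alternative added after these values were seen, the log2 fold changes against wild-type cells were 4.67 ± 1.02 and 4.89 ± 0.84 for the second and the third probe set, with limma adjusted p of 0.0835 and 0.065.

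Each homozygous array can be set against the other groups on its own, with a spread that then comes from the wild-type and heterozygous pairs alone and that assumes that a lone array varies like them. On this footing Hmga2 rose in homozygous array 2 by 2.71 over wild-type cells on the log2 scale (limma adjusted p = 0.0453, where 6.17% of all genes were called and 1.15% called higher) and in array 1 by 5.27 (limma adjusted p = 0.00214, where 24.4% were called and 7% called higher). Against heterozygous cells the values were 2.75 (limma adjusted p = 0.0425, with 6.67% of genes called and 1.2% called higher) and 5.31 (limma adjusted p = 0.00202, with 26% called and 7.54% called higher). The wider spread of the homozygous pair does not enter these p-values.

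**Figure D2:**
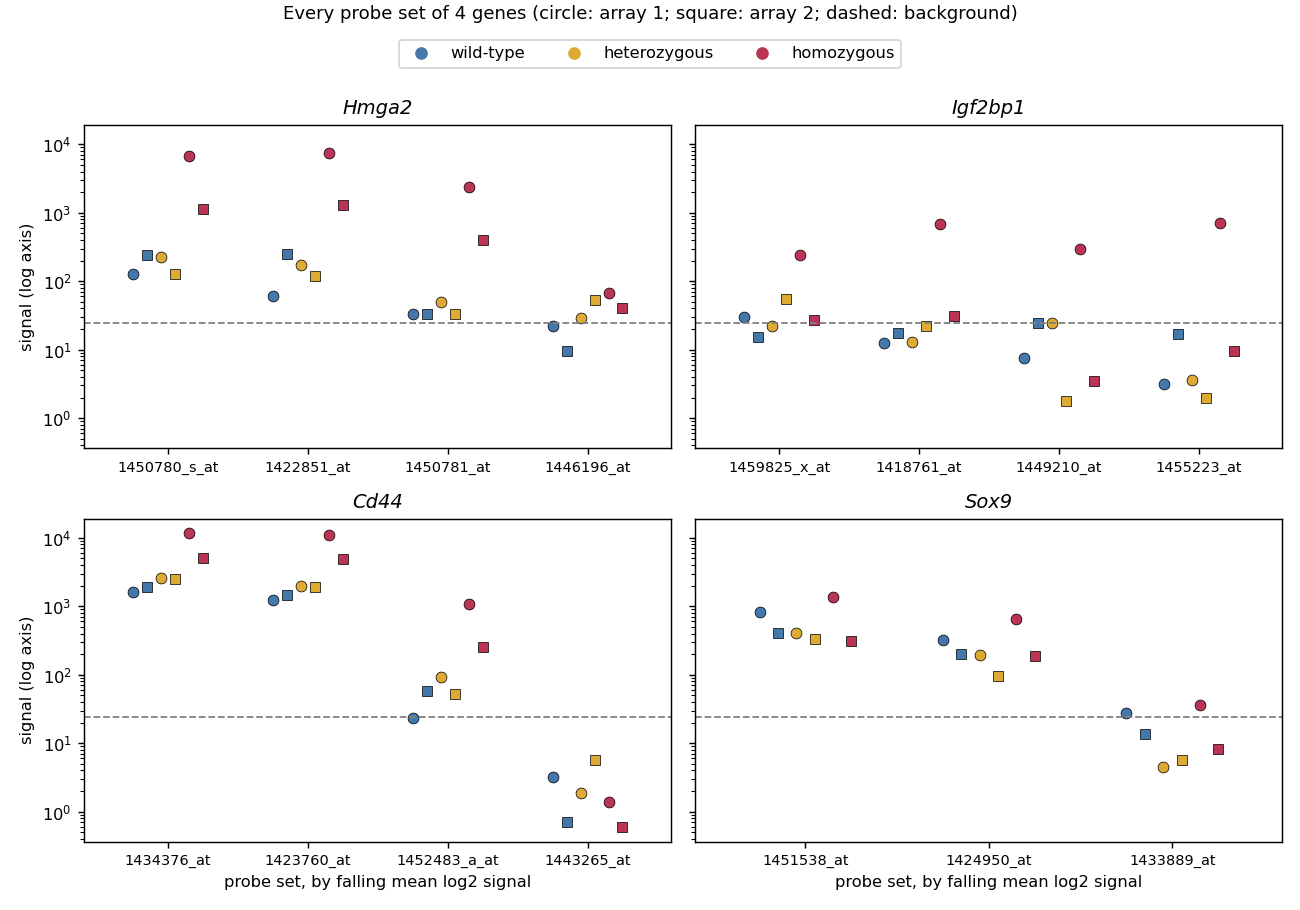
Signal (log axis) of every probe set of Hmga2, Igf2bp1, Cd44 and Sox9 in the 6 arrays, with circles for array 1, squares for array 2 and the background of 24.5 dashed. In Hmga2 and Cd44 the 3 brightest probe sets have both homozygous arrays above all others, whereas in Igf2bp1 and Sox9 homozygous array 1 alone is high.

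Lin28b, the let-7 inhibitor, was represented by a single probe set (1430803_at) that stood above background in 1 of 6 arrays. Its signals were 11.7 and 1.2 in wild-type, 5.9 and 0.4 in heterozygous, and 44.6 and 0.3 in homozygous arrays 1 and 2. Only homozygous array 1 exceeded the background of 24.5 (by 1.82-fold), and the other 5 values lay under it. Values under background have no order, so no fold between groups is given. Its paralog Lin28a, singled out after its values were seen, was likewise above background only in the homozygous arrays, at 124.5 and 28.0, with 3.1 to 19.4 in the other 4.

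Of 27 tested genes of the LIN28 and let-7 axis (processing enzymes of microRNAs and known let-7 targets), 0 were called against wild-type cells, with 20 of 27 positive and a median log2 fold change of 0.50, where the median of all genes was -0.09. Against heterozygous cells 1 of 27 rose (0.87% of all genes were called higher), the phosphate transporter gene Slc20a1, by 1.81 ± 0.29 (limma adjusted p = 0.0422), from signals of 551 and 527 to 2371 and 1509. The median of the list in that comparison was also 0.50, against -0.08 for all genes, and it was 0.05 for heterozygous against wild-type cells, where the median of all genes was 0.00.

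Igf2bp1, an oncofetal RNA-binding protein that let-7 also targets, was high in homozygous array 1 alone. Its brightest probe set by mean log2 signal (1459825_x_at) read 29.6 and 15.4 in wild-type, 21.9 and 55.7 in heterozygous, and 240 and 26.9 in homozygous arrays 1 and 2. Homozygous array 2 lay among the wild-type and heterozygous values, so the groups overlapped. This probe set is of a type that can bind related transcripts, and it was too dim to be tested. The other 3 showed a wider gap: 1455223_at read 705 in homozygous array 1 and 9.4 in array 2, with 2.0 to 16.9 in the other 4 arrays, and 1418761_at read 688 and 31.0, with 12.5 to 21.9 in the others. All 4 probe sets had homozygous array 1 above all 5 other arrays. Both homozygous arrays were above both wild-type arrays in 1 of 4 probe sets, 1418761_at, where array 2 was near background. They were above both heterozygous arrays in 2 of 4. By 1418761_at the homozygous mean was at least 5.96-fold higher than either other group, a bound against background, and by 1455223_at at least 3.33-fold; both means rest on array 1. For the brightest probe set 1 of 2 wild-type arrays was under background; with signals raised to background the log2 difference from wild-type cells was 1.58, and the fit without a filter on dim genes gave a limma adjusted p of 0.441.

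Igf2bp3, a close relative of Igf2bp1 that is named in many tumours, differed little between the groups by its brightest probe set. That probe set (1433731_at) read 90.8 and 70.9 in wild-type, 120 and 75.6 in heterozygous, and 125 and 95.4 in homozygous arrays. Both homozygous arrays were just above both wild-type arrays, and they overlapped the heterozygous ones. The log2 fold change against wild-type cells was 0.44 ± 0.33 (limma adjusted p = 0.412), or 0.82 with median-centred and 1.07 with quantile-normalised arrays, where the test was not passed either. Against heterozygous cells it was 0.19 ± 0.33 (limma adjusted p = 0.723), and heterozygous cells differed from wild-type cells by 0.25 ± 0.33 (limma adjusted p = 1). Of its 6 probe sets, 2 were under background in all arrays. In all 4 others homozygous array 1 was above the 5 other arrays, by the widest margin for 1422610_s_at, at 110.6, with 1.2 in array 2 and 21.7 to 33.9 in the other 4. The probe set 1433732_x_at read 153.6 and 35.1 in the homozygous arrays and 23.3 to 69.2 in the other 4. Among 11 tested messengers known to be bound by IGF2BP proteins, 0 were called in any comparison, and the median log2 fold change of homozygous against wild-type cells was 0.52.

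Cd44, the hyaluronan receptor, had the highest signals in homozygous cells. The probe set 1434376_at read 1614 and 1933 in wild-type, 2620 and 2498 in heterozygous, and 11587 and 5011 in homozygous arrays 1 and 2. The 3 groups did not overlap: wild-type arrays were lowest, heterozygous arrays intermediate and homozygous arrays highest. Arrays without overlap in this direction were seen for 27.4% of tested genes in homozygous against wild-type cells, 28.2% in homozygous against heterozygous and 13.2% in heterozygous against wild-type cells. The log2 fold change was 2.11 ± 0.43 against wild-type cells (limma adjusted p = 0.0664) and 1.57 ± 0.43 against heterozygous cells (limma adjusted p = 0.0913). Between heterozygous and wild-type cells it was 0.53 ± 0.43 (limma adjusted p = 1), so that step did not pass the test. The error there includes the spread of the homozygous pair. With only these 2 groups in the fit it was 0.24, and the step did not pass either. With the filter on dim genes at the 60th percentile, Cd44 rose against wild-type cells (limma adjusted p = 0.0475, where 5.92% of 7278 genes were called and 2.09% called higher). With that filter 0 of the tested members were called against heterozygous cells, where 7.13% of genes were called and 2.57% called higher.

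The probe sets of Cd44 gave the same order of homozygous and other arrays wherever it was detected. The probe set 1423760_at read 1219 and 1453 in wild-type, 1978 and 1921 in heterozygous, and 10934 and 4915 in homozygous arrays. The dimmer 1452483_a_at read 23.3 and 57.2, 91.3 and 53.2, and 1087 and 257 in the same order. The remaining probe set was under background in all 6 arrays. Taken singly against wild-type cells, homozygous array 2 was higher by 1.51 on the log2 scale and array 1 by 2.71. Against heterozygous cells array 1 was higher by 2.18 and array 2 by 0.97.

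Cd44 is also abundant in leukocytes, whose markers were therefore measured beside it. The 16 macrophage and myeloid genes had a summed signal of 2769 to 6205 in wild-type and heterozygous arrays and of 765 and 769 in homozygous arrays 1 and 2. Of 10 tested, 3 fell against wild-type cells (2.25% of all genes were called lower) and 4 against heterozygous cells (3.22%), among them Lyz2, the lysozyme of myeloid cells, which was under background in both homozygous arrays, at 9.0 and 4.0, after 603 and 577 with wild-type p53. Of the 16 genes, 14 to 16 were above background in each wild-type and heterozygous array, 8 in homozygous array 1 and 5 in array 2. Not all were lower in both homozygous arrays, as 2 genes singled out after their values were seen show. Cd14, a myeloid receptor, read 222 and 6.3 in homozygous arrays 1 and 2, against 45.8 to 128 in the wild-type and heterozygous arrays. Laptm5 read 215 and 38.6, against 33.1 to 334. The summed signal of 8 lymphocyte genes was 388 to 588 in wild-type and heterozygous arrays and 486 and 423 in homozygous arrays. The part of leukocytes in the Cd44 values was not tested. Over the fibroblast and mesenchyme genes the median was 0.10 against wild-type cells, with 1 of 15 genes lower (the receptor gene Pdgfra) and 0 higher. Of 15 tested genes of the hyaluronan axis (hyaluronidases, binding partners, CD44 proteases and a splicing factor), 0 were called in any comparison. Their median was -0.24 against wild-type cells, with 6 of 15 positive. The hyaluronan synthase genes Has1, Has2 and Has3 were too dim to be tested. Has2, singled out after its values were seen, read 126.6 and 25.2 in homozygous arrays 1 and 2, against 12.5 to 24.6 in the others. Has1 and Has3 overlapped between homozygous and wild-type arrays.

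Prom1, whose protein CD133 is used as a marker of progenitor and epithelial cells, had its lowest signals in homozygous cells. Its only probe set (1419700_a_at) read 48.5 and 70.3 in wild-type, 55.6 and 113.5 in heterozygous, and 1.6 and 21.5 in homozygous arrays. Both homozygous arrays were under background and both below every other array, as were 33.8% of tested genes against wild-type and 34.2% against heterozygous cells in this direction. As a bound against background, Prom1 was at least 2.38-fold lower than in wild-type and at least 3.24-fold lower than in heterozygous cells. It was too dim to be tested in the main comparison, and without the filter limma gave adjusted p of 0.28 and 0.233. In that fit of all 18194 genes 0 of the 8 members were called in any comparison, against 0% of all genes for homozygous against wild-type cells and 0.0934% for homozygous against heterozygous cells (0.0055% higher). Epithelial genes lay lower as well by their medians against wild-type cells, where 2.25% of all genes were called lower. Of 7 tested Mullerian markers 1 fell (Epcam), with a median log2 fold change of -1.81. Of 23 surface epithelium markers 2 fell, with a median of -1.54. Epcam, the epithelial adhesion molecule, read 857 and 1242 with wild-type p53 and 27.6 and 22.2 in homozygous cells. Their part in the Prom1 values was not tested.

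Kit was close to background in all groups. Its brightest probe set (1452514_a_at) read 20.4 and 45.5 in wild-type, 33.9 and 51.6 in heterozygous, and 34.4 and 20.4 in homozygous arrays, and the groups overlapped. The second probe set was under background in all 6 arrays. Markers of cells known to carry KIT were measured beside it, and their part in the Kit values was not tested. Of 11 mast cell genes, 3 to 6 were above background in an array, and the summed signal was 1350 to 2262 in wild-type and heterozygous arrays and 645 and 735 in homozygous arrays. Only 3 of the 11, Cpa3, Mcpt4 and Fcer1a, were under background in all 6 arrays. Others, singled out after their values were seen, went either way. Slc18a2 read 90.7 and 56.9 in homozygous arrays 1 and 2, against 16.6 to 35.7 in the other arrays. Cma1 read 109.9 and 9.8, against 2.5 to 21.6, and Ms4a2 read 2.9 and 2.3, against 3.1 to 30.1. Gata2, also singled out in this way and also expressed by other cells, read 107 to 574. Of 13 germ cell genes, 5 to 8 were above background in an array, with a summed signal of 299 to 454 in wild-type and heterozygous arrays and of 323 and 479 in the homozygous arrays. Of 3 tested genes of the mast cell list 2 fell in both comparisons with homozygous cells, Hdc and Srgn, which other cells express too. Of all genes, 2.25% were called lower against wild-type and 3.22% against heterozygous cells. Of 8 melanocyte and neural crest genes 3 to 6 were above background in an array, and 1 was tested and not called. The KIT ligand gene Kitl, singled out after its values were seen, was bright, at 6073 to 6268 in wild-type, 5925 and 7422 in heterozygous, and 3972 and 6284 in homozygous arrays. Of 14 tested genes of the KIT pathway, 1 fell against wild-type cells, the related receptor gene Pdgfra, with a log2 fold change of -2.81 ± 0.36 (limma adjusted p = 0.0326). Against heterozygous cells 2 fell, Pdgfra at -3.02 ± 0.36 (limma adjusted p = 0.0291) and the signal transducer gene Stat5a at -1.74 ± 0.30 (limma adjusted p = 0.0478).

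Sox9 differed between the homozygous arrays more than between the groups. The probe set 1451538_at read 835 and 400 in wild-type, 400 and 329 in heterozygous, and 1365 and 310 in homozygous arrays 1 and 2. Array 1 was the highest and array 2 the lowest of all 6. The log2 fold change was 0.17 ± 0.77 against wild-type cells (limma adjusted p = 0.9), 0.84 ± 0.77 against heterozygous cells (limma adjusted p = 0.491), and -0.67 ± 0.77 for heterozygous against wild-type cells (limma adjusted p = 1). Against heterozygous cells homozygous array 1 alone gave 1.91, and array 2 alone gave -0.23. In all 3 probe sets array 1 was above every other array. Of 17 tested genes of the SOX family and of the pathway around SOX9, 1 fell against wild-type cells, where 2.25% of all genes were called lower. It was the SOX9 partner gene Sox6, at -2.99 ± 0.35 (limma adjusted p = 0.0287), and the median of the list was -0.88. Of 8 cartilage genes, which SOX9 drives in chondrocytes, 0 were bright enough to be tested and 5 were under background in all arrays.

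**Figure D3:**
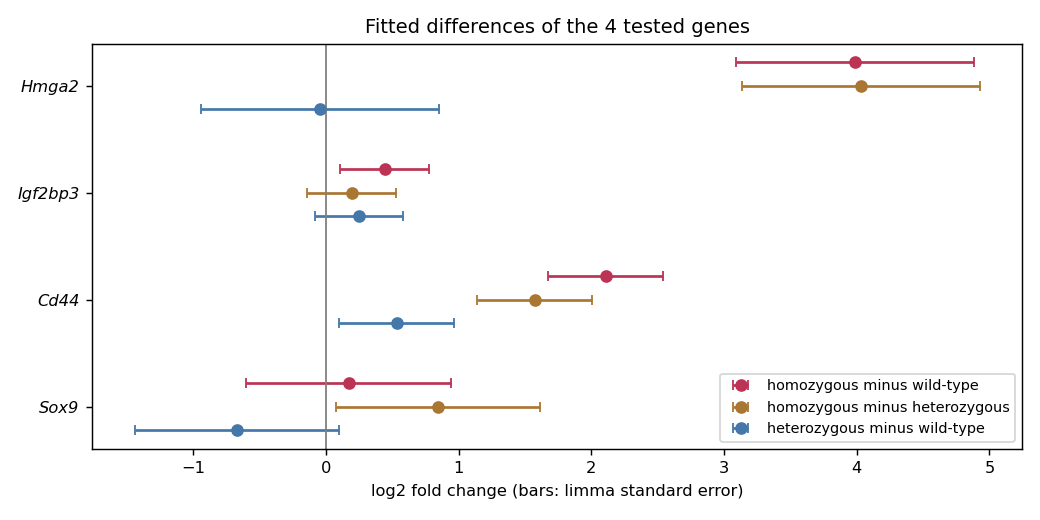
Log2 fold changes of the 4 tested genes in the 3 comparisons, with limma standard errors as bars (n = 2 arrays per group). Hmga2 (3.99 and 4.03) and Cd44 (2.11 and 1.57) are farthest from 0 in the comparisons with homozygous cells, and every heterozygous against wild-type value is under 1 in size.

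Most of the high signals of the 8 genes lay in homozygous array 1. In 7 of 8 genes array 1 was above array 2, against 47.3% of all tested genes. The shares given here cover tested genes only, whereas 4 of the 8 genes were too dim to be tested. In Lin28b and Kit array 2 was under background, and in Prom1 both were under background and have no order. In 6 of 8 array 1 was the highest of the 6 arrays, against 28.0% of tested genes; Kit and Prom1 were the exceptions. The log2 gap between array 1 and array 2 was 2.56 in Hmga2, 3.16 in Igf2bp1, 1.21 in Cd44, 2.14 in Sox9 and 0.39 in Igf2bp3. Of all tested genes, 94.1% had a smaller gap than Hmga2, 83.7% a smaller gap than Cd44 and 46.5% a smaller gap than Igf2bp3.

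Wider lists of related genes showed few changes in single tests. Of 26 tested pluripotency and stem cell markers, 1 fell against wild-type cells, Epcam, and the median was -0.15 (10 of 26 positive). In that comparison 2.25% of all genes were called lower. Of 11 tested other oncofetal genes 0 were called in any comparison, and the median against wild-type cells was -1.05, with medians of -2.46 for homozygous array 1 and 0.27 for array 2. Of 9 tested chromatin genes (other high-mobility-group proteins, the polycomb complex and Dek), 0 were called against wild-type cells. In that comparison 8 were positive, with a median of 0.48. Proliferation genes, given because embryonic genes are often read beside them, were positive in 28 of 28 cases against wild-type cells with a median of 1.46 and 0 called, and their medians were 1.59 and 1.32 in homozygous arrays 1 and 2. Their summed signal also differed within groups, from 47745 to 117156 in the wild-type and from 37973 to 110092 in the heterozygous arrays, against 195037 and 152199 in the homozygous arrays, and its part in the Hmga2 and Cd44 values was not tested. In each of the 3 pairs the array with the higher sum also had the higher Hmga2 and Cd44 signal. This was singled out after the values were seen, and the share of all genes that do so was not counted. For Cd44 the gap in the heterozygous pair was small, at 2620 and 2498. Hmga2 lay between 127 and 243 in the wild-type and heterozygous arrays. Of the remaining cell type lists, 3 of 5 tested endothelial genes fell against wild-type cells (median -1.83), namely Kdr, Icam2 and Esam. Pecam1, Erg and Tie1 of that list, singled out after their values were seen, were too dim to be tested. Pecam1 read 22.5 and 26.9 in the wild-type arrays. Of 7 granulosa and theca genes 0 were called against wild-type cells (median -1.63). Against heterozygous cells 1 fell, Fst, where 3.22% of all genes were called lower. For lymphocytes 0 of 2 genes and for germ cells 0 of 1 gene were called.

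**Figure D4:**
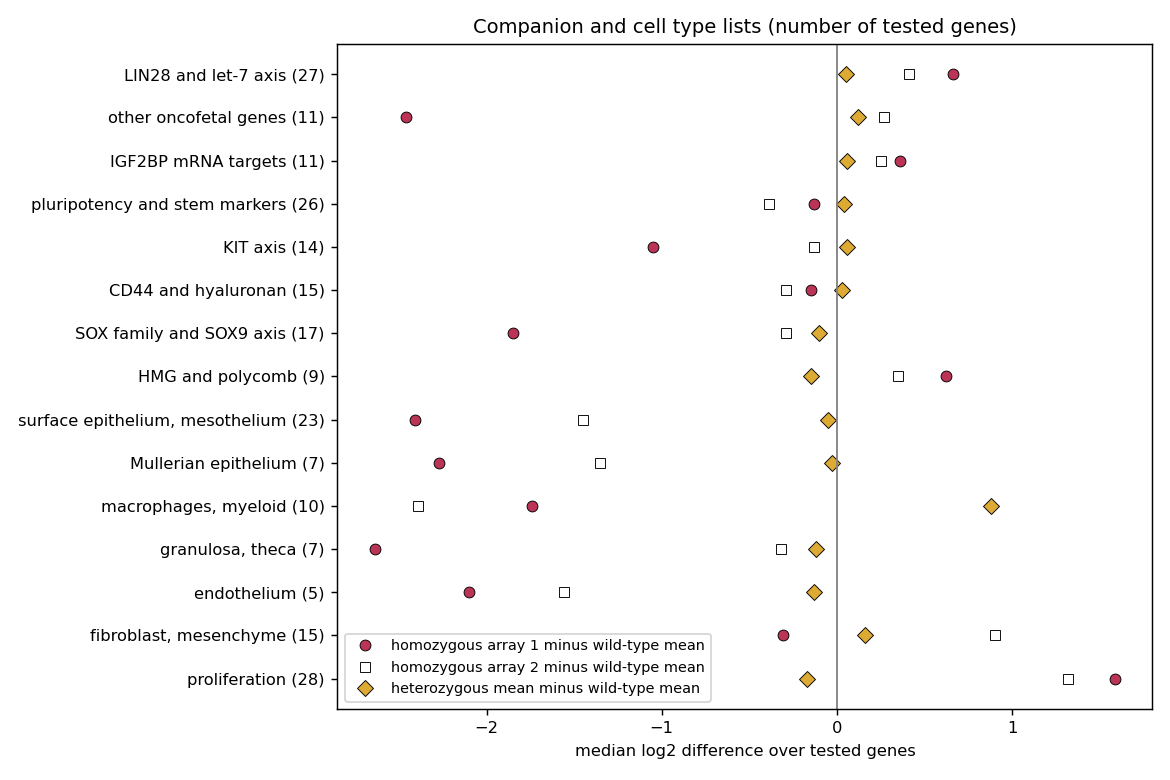
Median log2 difference from the wild-type mean over the tested genes of each companion and cell type list with at least 5 of them (number in brackets), for homozygous array 1 (filled circles), homozygous array 2 (open squares) and the heterozygous mean (diamonds). The LIN28 and let-7 list lies above 0 in both homozygous arrays (0.66 and 0.41), the other oncofetal genes only in array 2 (-2.46 and 0.27), and the surface epithelium and Mullerian lists lie under 0 in both.

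The genes with the most similar profiles differed from member to member. Likeness was measured as the root mean square difference of the log2 signals over the 6 arrays, each gene centred on its own mean, among 10920 genes, and with so few arrays it mostly reflects the homozygous pair. Nearest to Hmga2 were Ripor2 (0.28), Slc29a1 (0.36) and Mndal (0.41), and Ripor2 read 1154 and 265.5 in homozygous arrays 1 and 2, with 28.1 to 65.4 elsewhere. Nearest to Cd44 were Frmd4a (0.18), Loxl3 (0.21) and Pprc1 (0.22). Nearest to Sox9 were Peli1 (0.19), Rasa3 (0.21) and Shc4 (0.24). For the dim genes the neighbours were Dok2, Tnfrsf21 and Arap3 for Igf2bp1 (0.41 to 0.45), Stx11, Dennd11 and Tmem9 for Kit (0.16 to 0.19), Mlxipl, St6galnac2 and Rnf130 for Prom1 (0.23 to 0.25), and Gfpt2, Il33 and Crip2 for Lin28b (1.38 to 1.56). Signals under background make up part of these 4 profiles, both homozygous values of Prom1 and 5 of 6 values of Lin28b among them, so their distances are uncertain. No member was among the 3 nearest of another, and Igf2bp3 spanned less than 1 on the log2 scale and was not compared in this way.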

How the data were processed

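Messenger RNA was measured on 6 arrays, grouped by the sample titles. The authors deposited linear probe set intensities. RMA is named in the submitters' processing notes, but the mean over the middle 96% of the 45101 probe sets was 500 in every array, the form of scaled MAS 5.0 signals; other steps are not given in the sources used here. Of these probe sets, 34958 named 1 gene symbol in the platform annotation supplied, 932 several and 9211 none, and only the first were used, with symbols updated by Entrez identifier for 34754. Log2 was taken of the intensities with no offset. Where a gene had several probe sets, that of the highest mean log2 signal stood for it. Genes at or above the 40th percentile of mean signal were tested by limma (version 3.58.1, run under R 4.3.3), fitting 3 means to all 6 arrays with 3 residual and 2.26 prior degrees of freedom, and Benjamini-Hochberg adjustment over all 10916 genes. A gene was called at an adjusted p under 0.05. The procedure was tested on simulated data in which all arrays of a gene had the same spread. That test therefore does not cover the wider spread of the homozygous pair. Array number limits the precision; array data have no count depth. The members and lists were chosen with earlier results of these data known. Named were all members, up to 3 called genes per list, the 3 nearest profiles and label checks; others are said to be chosen after their values were seen. Alternatives covered the filter, normalisation, probe sets, background, samples, spread, replicate block and each array left out. Figures used Python 3.11.15 and matplotlib 3.10.9.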

Additional observations from a re-analysis of the deposited data

How the results depend on the processing

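No member was called in any comparison in the main analysis. That count was 1 against wild-type cells with the filter at the 60th percentile (Cd44), where 5.92% of 7278 genes were called. Leaving out an array gave called members only where that array was homozygous, which leaves 1 array for the group. The spread of the homozygous pair then drops out, and calls over all genes rose too. The count of called members stayed 0 with the other alternatives in the 2 comparisons with homozygous cells. In heterozygous against wild-type cells it stayed 0 with all 16. Signs turned for differences that were not called: Hmga2 between heterozygous and wild-type cells was 0.011 with quantile-normalised arrays, 0.030 with median-centred arrays and 0.48 averaging every probe set of a gene, and -0.51 to 0.42 leaving out an array. Leaving out an array gave -0.90 to 1.24 for Sox9 against wild-type and -0.23 to 1.91 against heterozygous cells, and for Igf2bp3 -0.087 to 0.585 between heterozygous and wild-type and -0.14 to 0.53 between homozygous and heterozygous cells. Hmga2 and Cd44 stayed positive in both comparisons with homozygous cells in all 15 alternatives that gave them a value, Hmga2 at 2.71 to 5.27 and Cd44 at 1.51 to 2.71 against wild-type cells; adjusted p by limma ran from 0.00214 to 0.328 and from 0.0028 to 0.306. Calls over all genes ranged from 0 to 2663 against wild-type and from 0 to 2841 against heterozygous cells. Centring arrays on their medians moved the median of all genes from -0.09 to 0.28 against wild-type cells. The causes of these changes were not tested.

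With a replicate block the count of called members was 0 in all 3 comparisons, and Hmga2 stood at 3.99 ± 0.88 against wild-type cells (limma adjusted p = 0.118), with 0 genes called of all in that comparison and 19 against heterozygous cells. The replicate numbers were not taken as pairs: the correlation of within-group deviations was -0.30, -0.10 and 0.16 in the 3 pairs of groups.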

Other observations

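Several other oncofetal genes, which the lists give only as counts, ran opposite to Hmga2 across the homozygous arrays; they were singled out after their values were seen. Gpc3, a heparan sulphate proteoglycan of the embryo, had signals of 447 to 576 in wild-type, 498 and 870 in heterozygous, and 6.2 and 2149 in homozygous arrays 1 and 2. Plagl1, an imprinted zinc finger gene, read 275 and 441 in wild-type, 235 and 224 in heterozygous, and 3.0 and 4467 in homozygous arrays. Both were under background in array 1 and above all other arrays in array 2. Mest, another imprinted gene, read 11799 and 10271 with wild-type p53, 8405 and 3182 in heterozygous arrays, and 32.8 and 908 in homozygous arrays. Sox11, an embryonic transcription factor gene, followed Hmga2 instead, at 1554 and 84.3 in homozygous arrays and 18.7 to 70.0 in the other 4. None of these 4 genes was called by limma against wild-type cells (adjusted p = 0.614, 0.772, 0.0919 and 0.235).

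Among further stem cell markers, also chosen after their values were seen, Cd24a read 2612 and 682 in homozygous arrays 1 and 2, after 229 and 385 with wild-type p53. Lgr6 read 858 and 246.5, after 82.8 and 116. Lgr5, the receptor of R-spondins in stem cells, was lower, at 39.7 and 179 after 705 and 760, as was Thy1, a surface protein of mesenchyme and T cells, at 3.4 and 37.3 after 677 and 458. None of these 4 was called by limma against wild-type cells (adjusted p = 0.152, 0.103, 0.085 and 0.0633).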
